A study of Mus musculus with 9 samples.

Results

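MAP kinase cascade genes and protein phosphatase genes were described over 9 two-colour cDNA arrays of mouse cells in growth and in 2 kinds of arrest. A clone was taken where its gene symbol in the array tables began with Mapk, Map2k, Map3k, Map4k, Dusp, Ptpn, Ppm1 or any of the 6 stems from Ppp1 to Ppp6, and a gene with several clones was given by the clone with the brightest mean log intensity. This gave 126 of 15294 clones and 79 of 7643 named genes. Of the 79 genes, 29 belonged to the MAP kinase cascade, 7 were dual-specificity phosphatases (Dusp), 37 were serine/threonine phosphatase subunits (Ppp and Ppm1) and 6 were tyrosine phosphatases (Ptpn). The rule goes by symbol alone. It therefore took in adaptors such as Map3k7ip2 (now Tab2), Mapkap1, a subunit of mTOR complex 2, and Ptpns1 (now Sirpa), a receptor that recruits tyrosine phosphatases and is none itself.

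Each array carried the RNA of 2 states, 1 in Cy3 and the other in Cy5. C2C12 is a mouse muscle precursor line with satellite cell origin, used here as sub-clone A2. Proliferating myoblasts (MB) were compared with myoblasts held 48 h in suspension in methyl cellulose medium, which arrest reversibly and undifferentiated (G0 MB), and with multinucleated myotubes (MT), which the methods describe as 3 days in differentiation medium. G0 FB are suspension-arrested fibroblasts, NIH 3T3 by the labels and C3H10T1/2 by the paper, and on 1 of those arrays the G0 MB source name starts with NIH 3T3 as well. G0 MB were set over MB on 3 arrays, and MT over MB, G0 MB over G0 FB and G0 MB over MT were measured on 2 arrays each. The methods tell of a biological replicate for each sample pair, but the labels do not say which arrays came from separate cultures. The p-values therefore measure the spread between arrays, which may be technical. The treatment field of every array tells of replating. The titles name the states given here, and groups were taken from them.

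A MAP kinase cascade passes a signal through 3 tiers of kinases, in which a MAP3 kinase phosphorylates a MAP kinase kinase and this phosphorylates the MAP kinase. ERK, JNK and p38 are the best known MAP kinases. Dual-specificity phosphatases inactivate MAP kinases by removing phosphate from both residues of the activation loop, while PP1, PP2A, calcineurin and the PPM enzymes act on serine and threonine, most of them through regulatory subunits that choose the substrate. In myoblasts ERK activity is tied to growth and p38 activity to the start of differentiation. Arrays of this kind measure the RNA of these genes, not phosphorylation, and in bulk samples less RNA per cell and fewer cells with that RNA cannot be told apart.

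The spots above an array's detection limit in at least 1 channel made up 36.4% to 61.1% of the spots. Of the 79 genes, 71 gave a value on at least 1 array, 27 on all 9, and 8 on none (Map3k14, Mapk10, Mapk8ip2, Ppm1l, Ppp1r14c, Ppp1r1b, Ppp1r3b and Ptpn14). A clone was tested with at least 2 arrays of a comparison and 2 residual degrees of freedom, and 33 genes could be tested in no comparison. Arrays 1 and 2 of G0 MB over MB correlated at 0.680 over all clones, but array 3, which has the other of 2 array layouts, correlated with them at 0.202 and 0.204. The 2 arrays of MT over MB, both labelled with MT in Cy5, correlated at -0.486, so the labels alone do not settle the direction of that comparison. The methods tell of a dye reversal within array pairs, which the labels of these 2 arrays do not show. The signs in the authors' value table, which read the state that the titles call test over the one they call reference (here called title order), turn 1 of these arrays and also all 4 arrays on which G0 MB were compared with MT or G0 FB. In title order the 2 arrays of MT over MB correlated at 0.486. Values follow the labelled dyes first, and title order second where it differs. Of 27 listed muscle differentiation markers the arrays carry 4. In MT over MB their median was log2 -0.13 by the labelled dyes (-0.76 to 4.01) and 1.39 in title order (-0.17 to 8.69). In G0 MB over MT all 4 lay above 0 by the labelled dyes, with a median of 1.41, and below 0 in title order. Mylpf measured 4.20 and 3.02 there by the labelled dyes and Tpm2 2.23 and 1.78, higher in G0 MB than in MT. In MT over MB Mylpf measured -4.68 and 12.7 by the labelled dyes, and 4.68 and 12.7 in title order. Which reading holds was not tested. The ratios of G0 MB over MB are the same in both readings, but their p-values differ because all arrays share the estimate of the spread. Of the 45 members tested there, 17 had the weaker channel under the limit on at least 1 array. Of 12 growing cell markers tested in that comparison 11 lay below 0, among them Ccna2 at log2 -4.80, -3.67 and -1.24. At an unadjusted p under 0.05, 6 were lower and 0 higher, beside 12.8% and 9.72% of all clones, and 0 were called by the labelled dyes. In title order 3 were called lower, Rrm1, Ccnb1 and Ccna2, with adjusted p-values of 0.022, 0.035 and 0.034 in limma, beside 1.45% of clones. Of 5 fibroblast markers tested there, Dcn was the highest at 2.74, 3.36 and 2.05, with an adjusted p of 0.061 in limma, or 0.031 in title order, where it was called and 1.51% of clones were called higher. The part of these markers in the members' values was not tested.

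Of 62 members with a promoter sequence in RefSeq (GRCm38.p6), 4 are printed because their brightest clones were the 3 lowest and the highest in G0 MB over MB among members measured on all 3 arrays on the same side of 0. Each holds 300 bases around the annotated start, most of them upstream, on the strand of the gene, with GC boxes (GGGCGG, either strand) and CCAAT boxes (CCAAT, either strand) in capitals. Ppm1g lies on the minus strand at chr5:31220496-31220795, Ppp5c on the minus strand at chr7:17027865-17028164, Ppp1r14b on the plus strand at chr19:6974798-6975097 and Map2k7 on the plus strand at chr8:4238490-4238789.
Ppm1g: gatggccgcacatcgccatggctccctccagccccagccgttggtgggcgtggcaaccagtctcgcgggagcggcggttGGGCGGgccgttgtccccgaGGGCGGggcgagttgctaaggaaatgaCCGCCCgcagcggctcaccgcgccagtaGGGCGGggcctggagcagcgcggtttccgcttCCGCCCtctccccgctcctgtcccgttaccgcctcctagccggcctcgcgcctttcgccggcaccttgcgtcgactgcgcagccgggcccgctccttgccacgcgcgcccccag
Ppp5c: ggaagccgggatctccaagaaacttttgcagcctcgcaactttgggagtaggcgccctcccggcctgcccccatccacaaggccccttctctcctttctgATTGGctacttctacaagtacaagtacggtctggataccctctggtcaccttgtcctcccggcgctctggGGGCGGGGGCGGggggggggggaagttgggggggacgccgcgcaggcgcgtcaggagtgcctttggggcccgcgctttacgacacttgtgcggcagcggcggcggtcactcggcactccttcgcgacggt
Ppp1r14b: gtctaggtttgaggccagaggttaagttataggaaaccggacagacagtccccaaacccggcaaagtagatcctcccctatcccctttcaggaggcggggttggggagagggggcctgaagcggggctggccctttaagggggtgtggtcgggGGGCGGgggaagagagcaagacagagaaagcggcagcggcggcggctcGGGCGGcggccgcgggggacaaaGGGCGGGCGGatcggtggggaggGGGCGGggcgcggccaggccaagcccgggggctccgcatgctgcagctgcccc
Map2k7: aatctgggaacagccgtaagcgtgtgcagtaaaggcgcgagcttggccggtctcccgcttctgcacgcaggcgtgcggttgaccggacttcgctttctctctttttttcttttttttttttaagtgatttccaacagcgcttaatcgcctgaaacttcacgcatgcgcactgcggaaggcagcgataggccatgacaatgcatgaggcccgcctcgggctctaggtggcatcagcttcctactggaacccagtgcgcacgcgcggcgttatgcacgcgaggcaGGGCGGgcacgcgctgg
The GC box stood 5 times in the Ppm1g and Ppp1r14b windows, 2 times in that of Ppp5c and once in that of Map2k7. It was present in 59 of 87 member promoters and in 35.7% of the 32851 promoters in the table. The CCAAT box stood in the Ppp5c window alone of these 4, in 30 of 87 member promoters and in 37.4% of all promoters. None of these 4 windows held TGACGTCA (CRE), TGANTCA (AP-1), CACGTG (E-box) or TTTNNCGC (E2F) on either strand.

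The comparison of G0 MB with MB asks which transcripts change when myoblasts leave the cycle undifferentiated. More members lay lower in G0 MB than higher, 28 against 17 of 45 tested. Below 0 were also 3702 of 6903 clones and 2195 of 3797 named genes. Of the members 0 passed the call, which was an adjusted p under 0.04 in limma with a mean ratio past 1.6-fold (log2 0.67). Over all clones tested 27 of 6903 passed it, 0.391%, with 0.275% higher and 0.116% lower. At an unadjusted p under 0.05, 10 members were lower and 2 higher, 22.2% and 4.44%, beside 12.8% and 9.72% of all clones. A mean ratio past 1.6-fold lower was found in 18 of 45 members against 25.8% of all clones, and past 1.6-fold higher in 7 of 45 against 20.8%. On 19 members all measured arrays lay below 0, beside 27.9% of clones, and on 8 all lay above, beside 21%. Members are brightest clones, and over the brightest clones of all named genes 26.7% lay past 1.6-fold lower and 17.3% higher. Of these named genes 28.9% had all arrays below 0 and 19.8% above, against 42.2% and 17.8% of members. The median of the members was log2 -0.34, that of all clones -0.08 and that of all named genes -0.15. These shares were set side by side and not tested. The plot of members by array shows the spread behind them.

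**Figure D1:**
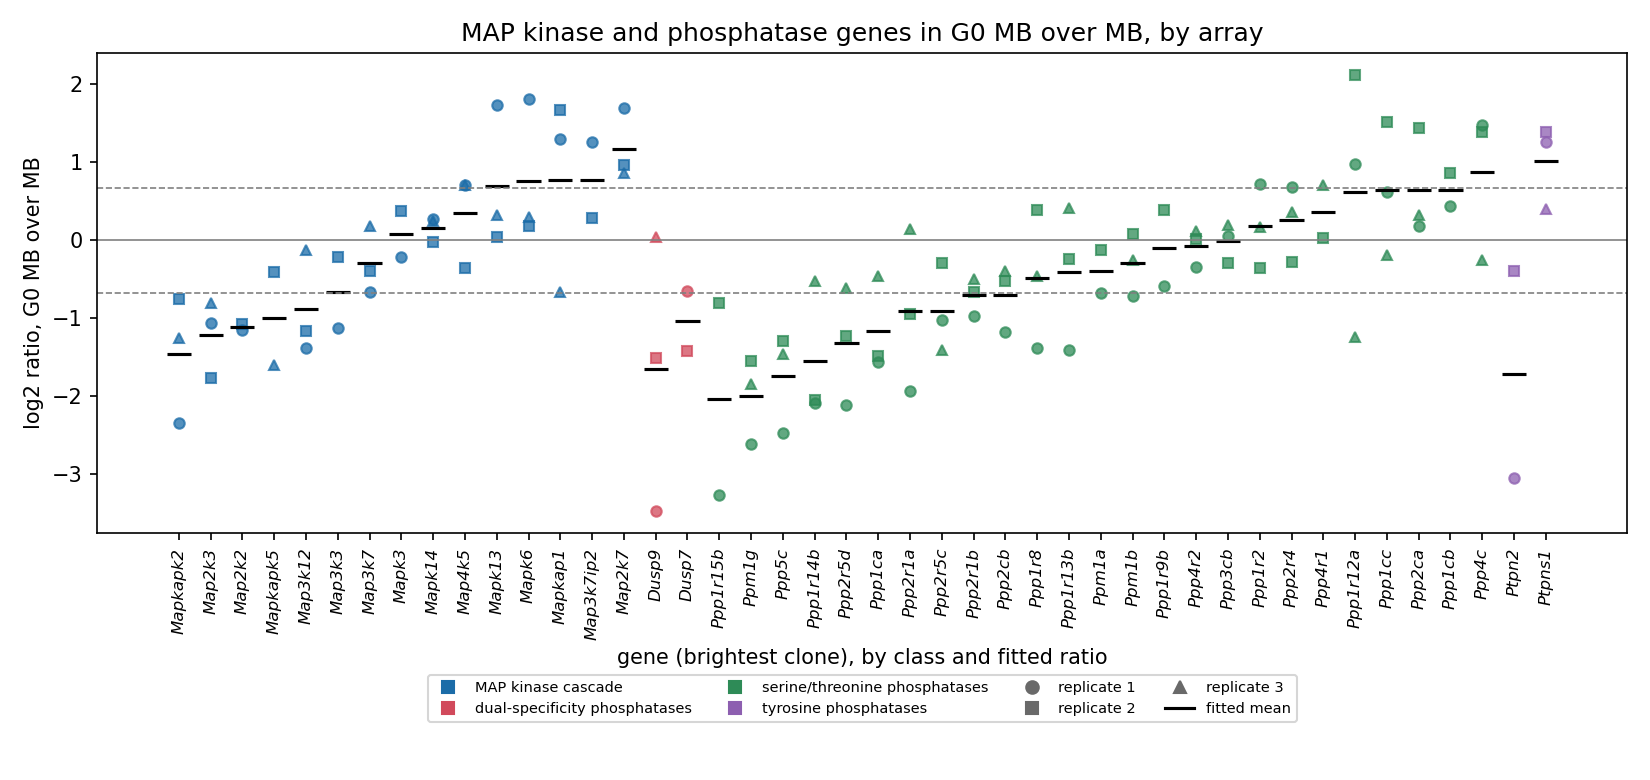
Log2 ratio of G0 MB over MB (y) for the brightest clone of 44 of the 45 members tested (x), grouped by class and ordered by the fitted mean. Circles, squares and triangles are replicates 1, 2 and 3, black bars the fitted mean and dashed lines 1.6-fold. Ppm1g, Ppp5c and Mapkapk2 lie below 0 on all 3 arrays and Map2k7 above 0 on all 3, while Ppp1r12a and Dusp9 have arrays on both sides.

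Among the kinases that activate MAP kinases, Map2k7 and Map2k3 lay on opposite sides. Map2k7, the kinase that activates JNK, measured log2 1.70, 0.97 and 0.86 on replicates 1 to 3. Its fitted ratio was 1.18 ± 0.45 (SE, 3 arrays), with an adjusted p of 0.18 in limma. It was higher in G0 MB on all 3 arrays, by array intensities of 35433, 34672 and 9303 in G0 MB against 10911, 17732 and 5120 in MB. Map2k3, which activates p38, measured -1.06, -1.76 and -0.80, a fitted ratio of -1.21 ± 0.37 with an adjusted p of 0.16. The third array rests on a G0 MB signal under the detection limit. Map2k2, the ERK kinase MEK2, measured -1.14 and -1.07 on its brightest clone and -1.27 and -1.0 on another clone, with no value on replicate 3. All 4 values lay below 0 and close together, and the adjusted p-values in limma were 0.37 and 0.17.

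The MAP kinases themselves spanned a narrower range. Mapk14, p38 alpha, measured 0.27, -0.02 and 0.24, with a fitted ratio of 0.17 ± 0.29. Mapk3, ERK1, measured -0.21 and 0.37, without a value on replicate 3, and did not differ from 0 by more than its spread. Mapk6, the atypical kinase ERK3, measured 1.81, 0.19 and 0.30 on its brightest clone, and Mapk13, p38 delta, 1.74, 0.04 and 0.33. In both the mean rests on replicate 1, which stood far above the other arrays, and on replicate 2 the G0 MB signal was under the limit. The fitted ratios of these 4 MAP kinases ran from 0.08 to 0.77. Mapk8, a JNK, was not tested for lack of residual degrees of freedom. Its intensities on replicates 1 and 2 were 14605 and 28475 in G0 MB against 26924 and 21888 in MB, on both sides of 0.

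Mapkapk2, the p38 substrate kinase MK2, was the lowest tested member of the cascade in this comparison. It measured -2.34, -0.76 and -1.26, with a fitted ratio of -1.45 ± 0.37, an unadjusted p of 0.0041 and an adjusted p of 0.10 in limma. All 3 arrays lay below 0, the third with the G0 MB signal under the limit. The other MAPK-activated kinase, Mapkapk5, had a G0 MB signal under the limit on both measured arrays (2609 and 1970 against 3455 and 5952 in MB), and no bound above 1-fold could be given. Of the MAP3 kinases, Map3k12 (DLK) measured -1.37, -1.16 and -0.12 and Map3k3 -1.12 and -0.21. The first Map3k3 value has the G0 MB signal under the limit. Map3k7, the TAK1 kinase that answers to TGF-beta and inflammatory cytokines, measured -0.66, -0.39 and 0.19, on both sides of 0. Its partner Map3k7ip2 measured 1.26 and 0.29, the second with the G0 MB signal under the limit, and Mapkap1 1.31, 1.68 and -0.66. For the 16 cascade genes tested the median was -0.10, with 5 past 1.6-fold higher and 5 past 1.6-fold lower.

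Dual-specificity phosphatases were mostly near or under the limit, and 2 of 7 could be tested. Dusp9, an ERK-directed phosphatase, measured -3.47, -1.51 and 0.05, with array 3 on the other side of 0 and an adjusted p of 0.16 in limma. Without that array it was called, at -2.49 with an adjusted p of 0.0267. Its intensity in G0 MB was 1018, 4241 and 5695 against 11294, 12093 and 5513 in MB, the first G0 MB signal under the limit. Dusp7, also directed at ERK, had a G0 MB signal under the limit on both measured arrays and was at least 1.17-fold lower in G0 MB, with the limit in place of the dimmer signal. Dusp10, which acts on p38 and JNK, measured 0.88 and 1.43 on 2 arrays, and Dusp14 -2.04 and -0.53. On replicate 1 the MB signal of Dusp10 and the G0 MB signal of Dusp14 were under the limit. Neither gene was tested for lack of residual degrees of freedom. Dusp16 and Dusp19 were detected on 1 array each, in MB alone (3570 and 3268), while the G0 MB signals of 4271 and 4125 were under the limit of their own channel, so no ratio is given. Dusp13 was measured on 1 array and was at least 1.61-fold higher in G0 MB.

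The serine/threonine phosphatases held the lowest fitted values of the members. Ppm1g, a nuclear PPM phosphatase that acts on splicing factors and histones, measured -2.61, -1.54 and -1.84 on replicates 1 to 3. The intensities were 6661, 19026 and 922 in G0 MB against 40647, 55450 and 3310 in MB, the last G0 MB value under the limit. Its fitted ratio was -2.00 ± 0.38 (SE, 3 arrays), with an unadjusted p of 0.00065 and an adjusted p of 0.058 in limma. Ppm1g lay below 0 on every array and missed the call by the adjusted p. All arrays share the estimate of the spread, and with MT over MB turned to title order Ppm1g passed with an adjusted p of 0.024. It was then the only member called, beside 2.96% of all clones and 1.45% called lower, while at an unadjusted p under 0.05 there were 12 members lower and 2 higher, beside 15% and 11.1%. Without either or both arrays of MT over MB its adjusted p was 0.0399, without replicate 3 of G0 MB over MB 0.0366. Over its 23 alternatives the adjusted p in limma ran from 5.2e-05 to 0.36, and 8 of them called it. The lowest came from single spots, which count duplicate spots of an array as replicates. With loess it was 0.20, with scaled arrays 0.27, without replicate 1 of G0 MB over MB 0.36 and without replicate 2 0.24.

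Ppm1a and Ppm1b, the other PPM enzymes tested, measured -0.68 and -0.12, and -0.71, 0.08 and -0.24, within the spread of the arrays. Ppp5c, a phosphatase that binds Hsp90, measured -2.47, -1.29 and -1.46, with a fitted ratio of -1.74 ± 0.48 and an adjusted p of 0.13. The G0 MB signal was under the limit on 2 of the 3 arrays. Ppp1r15b, which directs PP1 to the translation factor eIF2 alpha, measured -3.26 and -0.80, the first with the G0 MB signal under the limit. Ppp1r14b, an inhibitor of PP1, measured -2.08, -2.05 and -0.52, with a fitted ratio of -1.55 ± 0.69 and an adjusted p of 0.23.

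The catalytic subunits of PP1 lay on different sides of 0. Ppp1ca, the alpha subunit, was lower on each of its 3 clones. The brightest clone measured -1.56, -1.48 and -0.46, another -2.80, -1.42 and -0.85, and the last -1.29 and -0.70 on replicates 2 and 3, with fitted ratios of -1.17 ± 0.35, -1.69 ± 0.40 and -0.995 ± 0.39 and adjusted p-values of 0.13, 0.087 and 0.20 in limma. The clones share the RNA of the same arrays and are not replicates of the comparison. Without replicate 3 the brightest clone was called, at -1.52 with an adjusted p of 0.0368. Ppp1cb, the beta subunit, measured 0.44 and 0.87. Ppp1cc, the gamma subunit, measured 0.62, 1.51 and -0.19 on its brightest clone. Ppp1r2, the classical inhibitor-2, measured 0.73, -0.35 and 0.17, and Ppp1r12a, the myosin-targeting subunit, 0.98, 2.12 and -1.24, with arrays on both sides of 0. Ppp1r8 and Ppp1r13b also had arrays on both sides.

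For PP2A, a catalytic, a scaffold and a regulatory subunit join to an enzyme, and all 3 kinds were measured. The scaffolds Ppp2r1a and Ppp2r1b measured -1.93, -0.94 and 0.15, and -0.97, -0.66 and -0.49. The last Ppp2r1b value has G0 MB under the limit. The regulatory subunit Ppp2r5d measured -2.11, -1.22 and -0.61, with 2 of the arrays having G0 MB under the limit and an adjusted p of 0.22 in limma. Ppp2r5c measured -1.01, -0.29 and -1.40, the last with G0 MB under the limit. The catalytic subunits lay on opposite sides, Ppp2ca at 0.18, 1.44 and 0.33 and Ppp2cb at -1.17, -0.52 and -0.39. None of these passed the call. The paper's Q-RT-PCR panel lists Ppp2ca and, by less, Ppp2r1a as higher in G0 MB than in MB. cDNA clones of close paralogues can bind each other's RNA, so the assignment within the PP1 and PP2A catalytic families is uncertain. Ppp3cb, a catalytic subunit of calcineurin, measured 0.06, -0.28 and 0.20, and its fitted ratio of -0.01 ± 0.28 was the closest to 0 of the members. Ppp4c, the catalytic subunit of PP4, measured 1.48, 1.39 and -0.25, and the regulatory subunits Ppp4r1 and Ppp4r2 had fitted ratios of 0.37 and -0.07. For the 25 serine/threonine phosphatase genes the median was -0.40 (-0.074 with scaled arrays), with 10 past 1.6-fold lower and 1 past 1.6-fold higher. By array their median was -0.84, -0.27 and -0.25, against -0.19, -0.09 and -0.02 for all clones. Replicate 1 was thus the lowest, and without it the median of the fitted ratios was -0.083 over 21 genes.

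Of the tyrosine phosphatase group 2 genes were tested. Ptpns1 measured 1.27, 1.39 and 0.40, a fitted ratio of 1.02 ± 0.33 with an adjusted p of 0.14 in limma. All 3 arrays lay above 0, the third with the G0 MB signal under the limit. Ptpns1 was called up, with an adjusted p of 0.039 in limma, when both channels had to lie above the limit, which left out replicate 3. Ptpn2, the phosphatase TC-PTP, had a G0 MB signal under the limit on both measured arrays (706 and 3412 against 5818 and 4476 in MB), and no bound above 1-fold could be given. Ptpn11, the phosphatase SHP2, had 1 array on its brightest clone, at least 1.07-fold lower in G0 MB, and -2.00, -0.26 and -0.57 on another clone.

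Different clones of the same gene often disagreed, as the plot of clones shows. For G0 MB against MB, 13 genes had at least 2 tested clones, 31 clones in all, and the clones lay on the same side of 0 in 4 genes and on opposite sides in 9. The range between clones of a gene had a median of log2 1.04 and ran from 0.03 (Map2k2) to 2.38 (Ppp1cc). Ppp1cc had a brightest clone at 0.65 and 2 others at -1.0 and -1.73, and Ppp4c 1 clone at 0.87 and another at -1.40, measured -1.63, -1.06 and -1.51 with the G0 MB signal under the limit on 2 arrays. Mapk6 had 1 clone at 0.77 and another at -1.07, from -1.01 and -1.13 on replicates 2 and 3, with the G0 MB signal under the limit on both, so that it has no bound above 1-fold. Mapk14, Ppp2r4, Ppp1r12a, Ppp2r5c, Ppp2ca and Ppp4r2 also had clones on both sides, while Map2k2, Mapkap1, Ppp1ca and Ppm1a did not.

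**Figure D2:**
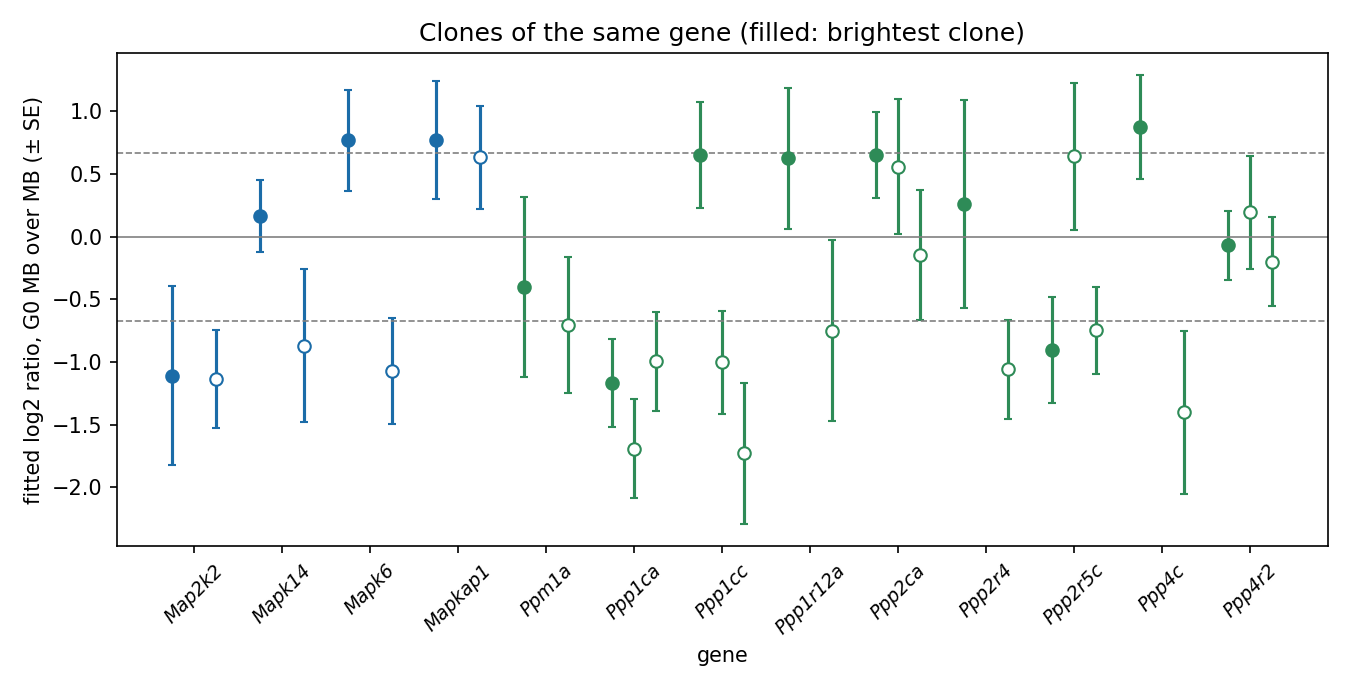
Fitted log2 ratio of G0 MB over MB with its SE (y) for every tested clone of the 13 genes with at least 2 tested clones (x). Filled points are the brightest clones, open points the others and dashed lines 1.6-fold. The 3 clones of Ppp1ca lie below 0, whereas the filled points of Ppp1cc, Ppp4c and Mapk6 lie above 0 and their open points below.

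Genes around the cascade were read from lists of receptors, adaptors and GTPases upstream, of kinases and transcription factors downstream, and of further phosphatases. Upstream, 18 of 47 listed genes were tested and 1 was called, the receptor Fgfr1, higher at 3.12, 3.60 and 2.80 with an adjusted p of 0.012 in limma, beside 0.391% of all clones called. At an unadjusted p under 0.05, 1 upstream gene was higher and 2 lower, beside 9.72% and 12.8% of all clones. Hras1, a Ras GTPase, measured -3.67 and -1.82, with an adjusted p of 0.072, or 0.034 in title order. Downstream, 0 of 12 tested genes were called, with 1 higher and 2 lower at an unadjusted p under 0.05, beside the same shares of clones. Hspb1, a small heat shock protein that MK2 phosphorylates, measured -1.18, -1.97 and -0.79. Jun measured 0.20, 0.40 and 2.33 and Egr1 0.15, 0.41 and 1.57, each highest on replicate 3. Of 18 further phosphatases tested 0 were called, with 2 higher and 2 lower at an unadjusted p under 0.05, against those same shares.

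MT over MB asks which transcripts change with differentiation. No member was called by the labelled dyes (0 of 38), nor was any clone (0 of 5373, 0%), and 1 member was higher and 0 lower at an unadjusted p under 0.05, beside 0.633% and 0.67% of clones. Past 1.6-fold there were 3 members higher and 0 lower, beside 6.81% and 5.29%. On 8 members both arrays lay above 0 and on 2 below, beside 26.4% and 14%. In title order 0 of 38 members and 33 of 5373 clones, 0.614%, were called (0.298% higher and 0.316% lower), with 3 members higher and 3 lower at an unadjusted p under 0.05, beside 5.03% and 6.96% of clones. Past 1.6-fold there were then 5 higher and 6 lower, beside 11% and 15.2%. Of 40 members with both arrays, 10 lay on the same side of 0 by the labelled dyes and 30 in title order. Mapk3 measured 3.23 and -1.87 by the labelled dyes. On replicate 1 the channel labelled MB (1233, against 11587 in the one labelled MT) was under the limit. Turned to title order these are -3.23 and -1.87, a fitted ratio of -2.55 with an adjusted p of 0.083. It thus lay below 0 on both arrays in title order and on both sides by the labels. Ppm1a measured -1.45 and 1.62 by the labels, with 1.53 and an adjusted p of 0.20 in title order, and Map2k7 -1.57 and 0.71, with 1.14 and 0.28.

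Some members had values on the same side by the labelled dyes. Mapk14 measured 0.23 and 0.55, Mapk13 0.23 and 0.68, Ppp3cb 0.06 and 0.37 and Mapkapk2 -0.54 and -0.21. In title order, where replicate 1 is turned, each of these 4 has arrays on both sides of 0. Ppp2r4 (now Ptpa), an activator of PP2A, measured 0.31 and 5.83. On replicate 2 its MB intensity was 241, under the limit, against 13693 in MT, and its other tested clone measured 0.50 and -1.41. The value rests on 1 array, and the unadjusted p of 0.015 gave an adjusted p of 1.00 in limma. It was called, with an adjusted p of 0.0027, where replicate 1 was left out. Ppm1d, a PPM phosphatase induced by p53, was not tested and measured -6.71 and 8.06. Its intensities were 340 in MT and 35485 in MB on replicate 1 and 59911 in MT and 224 in MB on replicate 2, so a different dye was dark on each array. In title order, where replicate 1 is turned, it was at least 13.7-fold higher in MT as the mean of both arrays. Among the 4 muscle markers, Tpm2, a tropomyosin, was the only one called in title order, at 3.42 and 2.00 with an adjusted p of 0.028, while 2 of 4 lay past 1.6-fold higher and 1 below 0. By the labelled dyes Tpm2 measured -3.42 and 2.00, 0 of the 4 were called, and 1 lay past 1.6-fold higher and 2 lower.

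**Figure D3:**
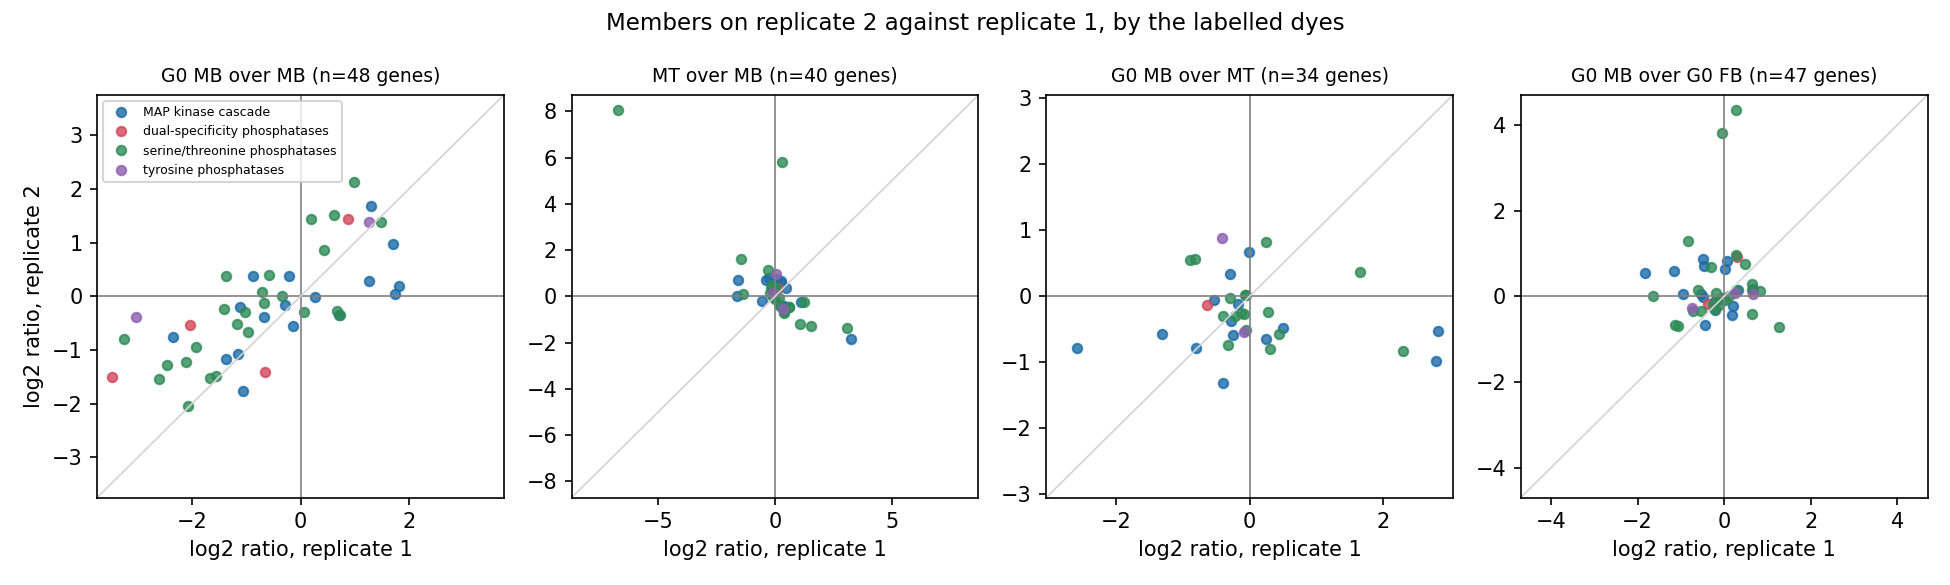
Log2 ratio on replicate 2 (y) against replicate 1 (x) for the members measured on both, in each comparison by the labelled dyes, coloured by class, with the line of equality in grey. Between G0 MB and MB 37 of 48 members lie on the same side of 0 on both arrays, in MT over MB 10 of 40, 19 of 34 for G0 MB against MT and 30 of 47 for G0 MB against G0 FB.

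G0 MB over MT sets the 2 arrested states against each other. By the labelled dyes 0 of 34 members were called, beside 0.039% of clones, and 0 had an unadjusted p under 0.05, beside 4.15% higher and 3.8% lower among clones. In title order, where every sign is turned, 0 members and 0.37% of clones were called, with 2 members higher and 0 lower at an unadjusted p under 0.05, beside 5.28% and 5.34%. By the labelled dyes 4 members lay past 1.6-fold higher and 4 lower, beside 15.1% and 12.3%, and both arrays lay above 0 in 2 members and below in 17, beside 21.7% and 34%. The MAP kinases Mapk3, Mapk14, Mapk6 and Mapk13 lay below 0 on both arrays by the labelled dyes, and above 0 in title order. Mapk3 measured -2.59 and -0.79, Mapk14 -0.80 and -0.79, Mapk6 -0.28 and -0.37 and Mapk13 -0.17 and -0.12. The weaker channel of Mapk3 was under the limit on 1 array. Mapk14 had a fitted ratio of -0.80 ± 0.35 and an adjusted p of 0.63, or 0.48 in title order, but its other clone measured 1.21 and 0.16. The JNK kinase kinase Map2k7 measured -1.31 and -0.57. Fgfr1, outside the members, measured -4.04 and -3.68 by the labelled dyes, with an adjusted p of 0.034. In title order its fitted ratio was 3.86, with an adjusted p of 0.020 in limma, so that it was called in opposite directions. The paper's Northern blots show Fgfr1 induced in G0 MB and not in MT, which is the direction of title order. Ppm1g measured 0.25 and 0.82 and Ppm1a 1.65 and 0.36, above 0 on both arrays by the labelled dyes. On replicate 1 the channel labelled G0 MB for Ppm1g and the one labelled MT for Ppm1a were under the limit. Ppp1ca, at -0.07 and 0.02, and Ppp1r2, at -0.06 and 0.02, lay near 0. The median over the 14 cascade genes was -0.25 and over the 17 serine/threonine phosphatase genes -0.16, against -0.07 for all clones.

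G0 MB over G0 FB asks how far the arrested state depends on cell type. By the labelled dyes 0 of 44 members were called, beside 0.0805% of clones, with 1 higher and 0 lower at an unadjusted p under 0.05, beside 1.84% and 1.79%. Past 1.6-fold 2 members lay higher and 2 lower, beside 11.6% and 6.94%. In title order 0 members and 0.0805% of clones were called, with 0 members higher and 1 lower at an unadjusted p under 0.05, beside 2.46% and 2.98%. The members were split evenly, with 14 of 44 above 0 on both arrays and 14 below, against 31.6% and 28.4% of clones. Ppp2cb measured 0.27 and 4.35 and Ppp2r1b -0.04 and 3.81. In both the second value has a G0 FB intensity under the limit (318 and 237), while both channels of replicate 1 were above it. Ppp4c measured 0.47 and 0.76, Ppp1r12a 0.26 and 0.96 and Ppp2ca 0.65 and 0.28 on replicates 1 and 2. Dusp7 had a G0 FB signal under the limit on both arrays (1249 and 1993), and no bound above 1-fold could be given. Ppp1r14b measured -1.07 and -0.69, Ppp3cb -0.53 and -0.34, Map2k7 -0.45 and -0.66 and Ptpn11 -0.75 and -0.26, below 0 on both arrays. The 15 cascade genes ran from -0.64 to 0.44, all within 1.6-fold, and had a median of -0.12, while the 24 serine/threonine phosphatase genes had a median of 0.08, against 0.01 for all clones. Of the listed markers, the 3 muscle markers tested lay below 0 by the labelled dyes, with a median of -1.25 (-2.64 to -0.03). The 4 fibroblast markers tested had a median of -0.79 (-1.49 to 2.72), with 3 below 0 and 1 above. In title order each of these signs is turned. Which reading holds for this comparison was not tested.

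**Figure D4:**
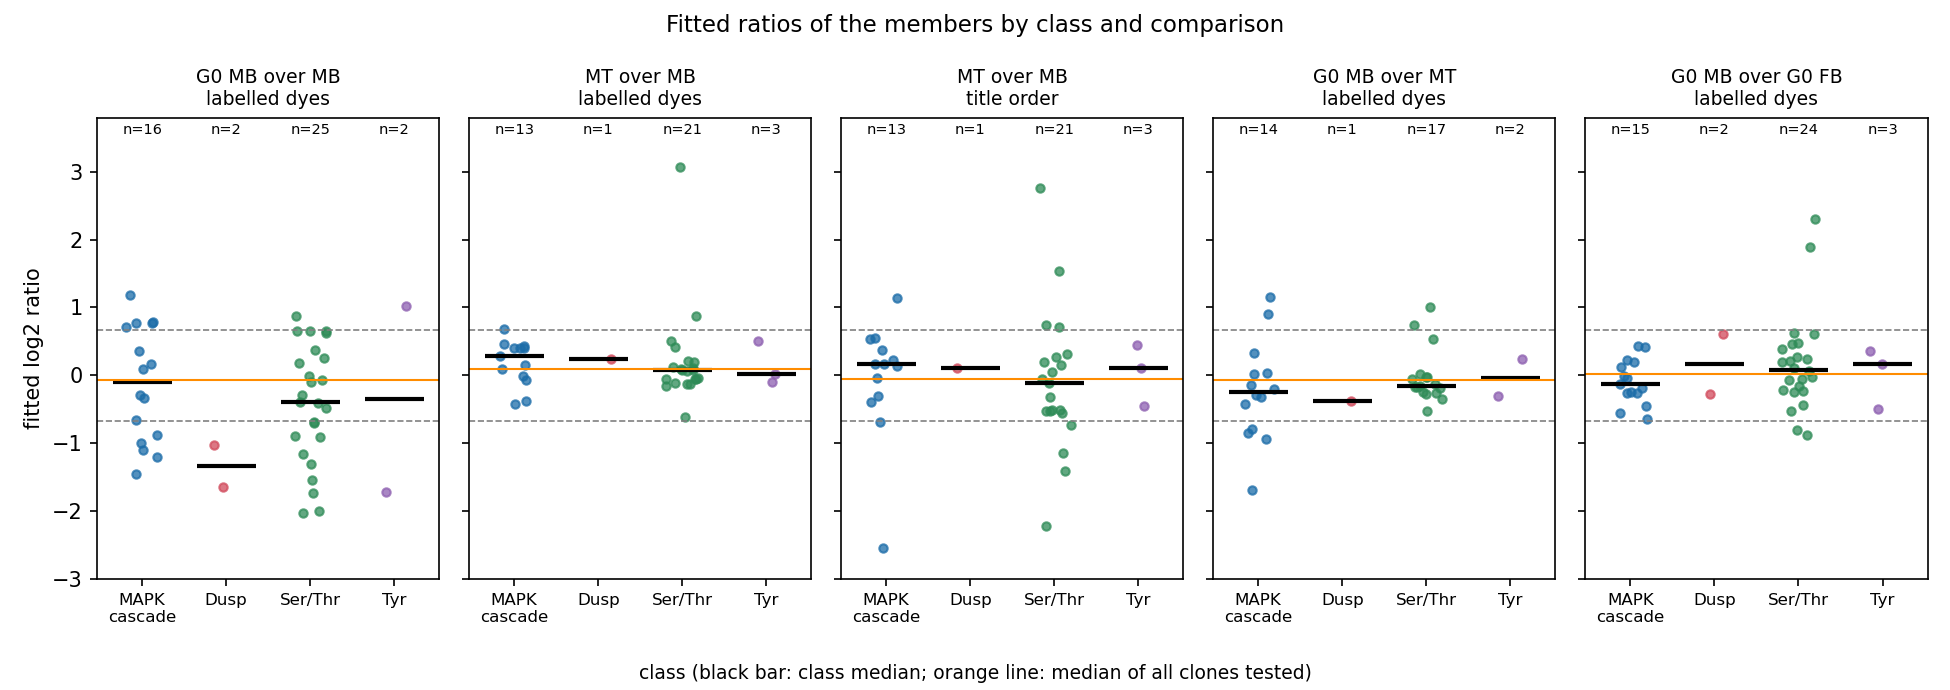
Fitted log2 ratio (y) of each tested member by class (x) in the 4 comparisons by the labelled dyes, and for MT over MB also in title order. Black bars are class medians, the orange line the median of all clones tested and dashed lines 1.6-fold. The serine/threonine phosphatases in G0 MB over MB have a median of -0.40 below the orange line at -0.08, while the cascade genes, at -0.10, lie beside it.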

How the data were processed

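The deposited Cy3 and Cy5 intensities came from ArrayVision, and the authors had already subtracted the background and applied LOWESS to them. The log2 values deposited beside them by the authors are the log2 ratios of these intensities, and the authors' value table holds log2 ratios of the same arrays, in which the columns of the MT over MB replicates are exchanged. The versions of these tools are not given in the sources used here. The design had foreseen raw intensities, so neither background correction nor loess was repeated in the main values (loess with span 0.3 was tried). Spots at or under the detection limit in both channels and control spots were left out, duplicate spots were averaged, and the limit is the brightest signal that the detection column marks as not detected. Array 3 of G0 MB over MB has no symbols in its table, so they were taken by clone name. All 9 arrays entered a single limma fit with a coefficient for every comparison (limma 3.58.1, R 4.3.3; prior degrees of freedom 3.52, prior variance 0.513). The Benjamini-Hochberg adjustment ran over all clones of a comparison. Tables and plots were made with Python 3.11.15, pandas 2.3.3, numpy 2.4.6 and matplotlib 3.10.9. Call limits follow the thresholds of the SAM analysis in the methods. Precision is limited by the number of arrays. In a test on simulated arrays for G0 MB over MB (6903 clones), the share of altered clones called was 2.99% at a simulated log2 of 1, 34.3% at 2 and 97.0% at 4, and 2 of 91 calls were false. The simulated noise was independent between arrays, with the fitted variance of each clone and no error of dye or direction. These shares therefore do not cover the disagreement between arrays given above.

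Members and lists were chosen with earlier results of these data known. Named were members called in either reading and the 3 highest and 3 lowest of each class with all arrays on the same side of 0. Members with clones past 1.6-fold in opposite directions and 45 genes of known role where tested (32 are on the arrays) were named too. Among the latter Mapk9, Map2k1, Map2k4, Ppp3ca and Ppp6c gave values on some arrays but could not be tested, and these values are not described. Further genes are named to describe a class, after their values were seen. The values of 1 member are not reported here, and it stays in the counts and medians. Where the dimmer signal of the same RNA was under the limit on every array, the fold is a lower bound computed with the limit. Of 79 member symbols 79 were found in RefSeq, 4 of them under a newer symbol. Alternatives were title order, the opposite turn of MT over MB, median centring, scaled arrays, loess, the value table, a dye term, a replicate block, separate fits, single spots, both channels above the limit, no limit, the mean over clones, each array left out and, added after seeing the data, both arrays of MT over MB left out.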

Additional observations from a re-analysis of the deposited data

How the results depend on the processing

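With 2 or 3 arrays a comparison, changes near 1.6-fold could rarely be called, and 33 genes stayed untested. The count of members called in G0 MB over MB was 0 as reported, 1 (Ppm1g) in title order, with the opposite turn of MT over MB and without both arrays of MT over MB, 2 (Ppm1g lower, Ptpns1 higher) with both channels above the limit, and 21 (7 higher, 14 lower) with single spots, which counts duplicate spots of 1 array as replicates. With each array left out it ran from 0 to 3, the 3 without replicate 3 (Ppm1g, Ppp1ca and Dusp9, all lower). In MT over MB it was 1 in the value table (Ppm1d) and 1 with single spots (Ppp2r4), and 0 to 1 with an array left out. For G0 MB against MT it was 1 with single spots (Mapk14) and 0 with each array left out. For G0 MB against G0 FB it was 0 under every alternative.

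Over all clones the counts of calls ran from 0 to 567 in G0 MB over MB (27 as reported, 204 in title order, 0 with scaled arrays, 567 without replicate 3), 0 to 37 in MT over MB (0 as reported), 0 to 56 in G0 MB over MT (2) and 0 to 9 in G0 MB over G0 FB (5), and with single spots they were 2938, 163, 843 and 286.

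The median of cascade genes in G0 MB over MB, -0.10, was 0.17 with the replicate block and with both channels above the limit, and -0.10 to 0.32 with an array left out. That of the serine/threonine phosphatases, -0.40, was -0.074 with scaled arrays, -0.17 in the value table and with no limit and -0.23 with median centring, within the SD of 0.33 between arrays, and ran from -0.61 to -0.08 with an array left out. In MT over MB the cascade median, 0.29, was 0.16 in title order and in the value table, -0.16 with the opposite turn, 0.027 with a dye term, 0.089 with single spots, 0.15 with both channels above the limit, with no limit and with the mean over clones, and 0.092 to 0.29 with an array left out. Between G0 MB and MT the cascade median, -0.25, was 0.25 in title order and 0.30 in the value table, and -0.58 to -0.25 with an array left out. The serine/threonine median there, -0.16, was 0.16 in title order and in the value table and -0.012 with scaled arrays. Between G0 MB and G0 FB the cascade median, -0.12, was 0.12 in title order and in the value table. The serine/threonine median there, 0.083, was -0.083 in title order, -0.028 with loess, -0.019 in the value table, 0.0038 with the replicate block, -0.052 with single spots and -0.065 with both channels above the limit, and -0.0066 to 0.083 with an array left out.

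Whether the replicate numbers pair the arrays was not settled. The deviations of replicate 1 correlated between -0.43 and 0.05 across comparisons. The -0.43 was found between the myotube and the fibroblast comparison of G0 MB. By the labels the dyes are reversed between the replicates of each, so a dye effect cannot be told from pairing there. With the replicate block 4 clones and 0 members were called in G0 MB over MB. Of 2629 values of the named genes under an alternative 26 became calls, 16 of them with single spots. Between G0 MB and MB at most 5 of 29 named genes changed sign under an alternative, the 5 with the mean over clones. In MT over MB up to 21 of 34 did so, with the opposite turn, and 13 in title order. Between G0 MB and MT 24 of 24 named genes changed sign in title order and in the value table, and between G0 MB and G0 FB 33 of 33.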
